A study of Mus musculus with 22 samples.

Results

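The genes described here encode oxidases that make superoxide or hydrogen peroxide in the colon, together with a maturation factor of one of them. They were chosen by name, as Duox2, Duoxa2, Nox1, Nox4 and Cybb, taking the probe set of highest mean where a gene has several. Of these 5 genes, 4 had a named probe set, 1 each, among 22203 probe sets that name 19505 genes, while Duox2 had none under its name and was not analysed here. RefSeq also gives Duox2 as a synonym of Duox1, so which gene the probe set named Duox1 measures rests on the platform annotation. The tissue was 22 colon tumours induced with the carcinogen azoxymethane in male FVB/N mice, an inbred strain, with 1 tumour array per mouse title. The control group held 6 mice on a low-fat diet (10% of energy from fat) without sulindac. The obese group held 5 mice on a high-fat diet (60% of energy from fat) without sulindac, and 6 further mice on the high-fat diet received sulindac, an anti-inflammatory inhibitor of cyclooxygenases. The 5 formerly obese mice went from high-fat to low-fat feeding and received no sulindac. All groups thus shared the carcinogen, strain and sex, and the labels used here give no ages, doses or durations. The series asks how tumours differ under obesity, after weight loss by diet, and under the drug.

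NADPH oxidases carry electrons from NADPH across a membrane to oxygen. Nox1 is the main NADPH oxidase of colon epithelium, where it needs the membrane partner p22phox, the organizer Noxo1 and the activator Noxa1. Duox2 releases hydrogen peroxide at the surface of mucosal epithelium and needs the maturation factor encoded by Duoxa2 to leave the endoplasmic reticulum. Cybb encodes gp91phox, the catalytic subunit of the phagocyte oxidase that neutrophils and macrophages use against microbes. Nox4, expressed in fibroblasts, vessels and other mesenchymal cells, is known for releasing hydrogen peroxide without the cytosolic activators.

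Each array gave levels on a scale read as log2 and brought to a common scale, with array medians between 6.67 and 6.83, so a level is relative to the rest of its array. As a check of the tissue label, the 9 markers of epithelium had means above those of 61.2% (Cdx1) to 99.9% of named genes. Formerly obese Mouse_134 stood apart in levels of 2 marker lists. Its mean over 9 markers of absorptive colonocytes was 13.4 against 11.5 for the next tumour, and over 7 smooth muscle markers 11.9 against 10.5. Limma called 0 of 22203 probe sets (0%) in each of the 6 pairs of groups and in the F test over the 4 groups, at an adjusted p under 0.05. Before adjustment, a p under 0.05 was reached by 894 probe sets for obese minus control, 1263 for formerly obese minus obese, 1454 for obese sulindac minus obese and 1333 in the F test. The background against which the oxidase genes are read is therefore a share of 0%, and 0 of the 4 genes were called in any comparison. Of their 24 differences, 1 had an unadjusted p under 0.05, that of Cybb for obese sulindac minus control. In that pair of groups 1473 probe sets (6.63%) reached such a p. The share over all probe sets was 4.03% to 6.63% in the 6 pairs, so 1 of 24 does not stand out from it.

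Duoxa2 varied widely between tumours of every regimen. In control tumours its log2 level ran from 9.11 to 13.1 with a median of 10.345. The obese tumours were at 9.34 (Mouse_96), 13.69 (Mouse_101), 12.21 (Mouse_107), 11.73 (Mouse_109) and 10.55 (Mouse_113). With sulindac the levels ran from 8.74 to 13.57 with a median of 11.875. All 4 groups overlapped, and the highest and the lowest tumour of the series both came from mice on the high-fat diet. The formerly obese tumours were the closest together, at 10.89 (Mouse_134), 11.39 (Mouse_140), 11.15 (Mouse_146), 12.02 (Mouse_150) and 12.74 (Mouse_152). The means were 10.54 ± 1.51 in control (SD, n = 6), 11.50 ± 1.65 in obese (SD, n = 5), 11.52 ± 1.94 with sulindac (SD, n = 6) and 11.64 ± 0.74 in formerly obese tumours (SD, n = 5). Control tumours came last in this order, and none of the neighbouring means differed beyond the spread within groups. The obese mean lay 0.96 ± 0.87 log2 units above the control mean (SE, 95% interval -0.84 to 2.76, limma adjusted p = 0.9998). This difference was 0.42 without obese Mouse_101 and 1.50 without obese Mouse_96. Formerly obese minus obese was 0.13 (95% interval -1.74 to 2.01, adjusted p = 0.9924) and obese sulindac minus obese 0.02 (95% interval -1.78 to 1.82, adjusted p = 0.9995). Both of these turned sign when single mice were left out.

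Nox1 had one of the widest spreads on the array. Its levels over the 22 tumours ran from 6.41 to 15.21, a 446-fold range on the linear scale, and its SD of 2.17 ranked 46th among 22203 probe sets. Control tumours spanned that whole range, from 6.41 (Mouse_26) to 15.21 (Mouse_27), with a median of 10.83. The obese tumours were at 9.43 (Mouse_96), 12.12 (Mouse_101), 12.9 (Mouse_107), 11.11 (Mouse_109) and 10.24 (Mouse_113). With sulindac the levels ran from 8.31 to 13.58 with a median of 12.42. The formerly obese tumours were at 10.14 (Mouse_134), 8.59 (Mouse_140), 9.13 (Mouse_146), 13.52 (Mouse_150) and 11.19 (Mouse_152). The 3 highest tumours came from 3 regimens (control, sulindac and formerly obese), and every group overlapped every other. Means ran from 10.38 ± 3.09 in control, through 10.51 ± 1.95 in formerly obese and 11.16 ± 1.40 in obese, to 11.61 ± 2.14 with sulindac (SD, n = 6, 5, 5 and 6), with no neighbours apart beyond the spread. Obese minus control was 0.78 ± 1.27 log2 units (SE, 95% interval -1.86 to 3.42, limma adjusted p = 0.9998). The 2 extreme controls moved this value, to -0.01 without Mouse_26 and to 1.75 without Mouse_27. Formerly obese minus obese was -0.65 ± 1.33 (95% interval -3.40 to 2.11, adjusted p = 0.9679), or -1.40 without formerly obese Mouse_150 and -0.17 without formerly obese Mouse_140. Obese sulindac minus obese was 0.45 ± 1.27 (95% interval -2.19 to 3.08, adjusted p = 0.9798), or 0.01 without obese Mouse_96 and 1.10 without obese sulindac Mouse_131. The intervals allow changes of several fold either way.

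**Figure D1:**
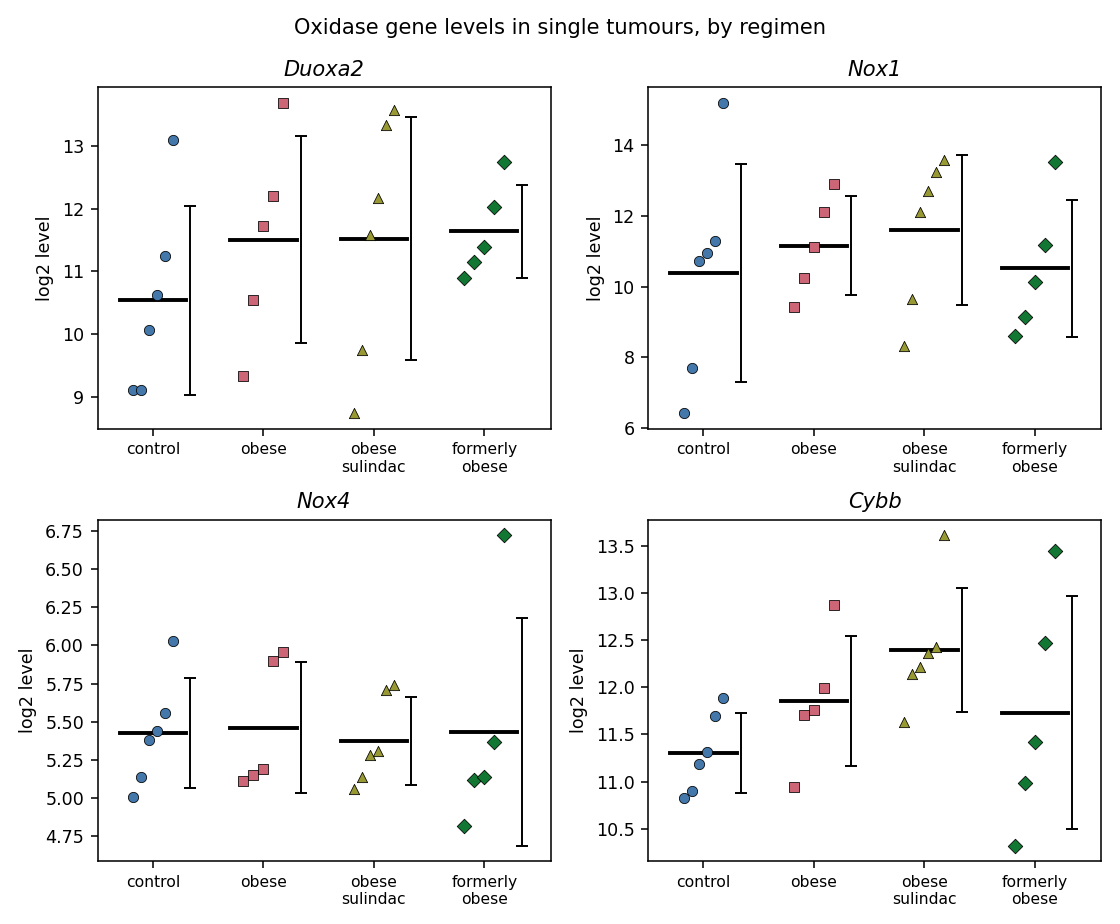
Log2 level of Duoxa2, Nox1, Nox4 and Cybb in each of the 22 tumours, by regimen (points are tumours, horizontal bars are group means, error bars are SD; each panel has its own axis, which does not start at 0). Tumours of the 4 regimens overlap for all 4 genes, and Nox1 spans 6.41 to 15.21 among the 6 controls alone.

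Cybb had the clearest ordering of means by regimen among the 4 genes, although it too was not called. Control tumours ran from 10.83 to 11.89 with a median of 11.25, the narrowest group. The obese tumours were at 10.94 (Mouse_96), 11.99 (Mouse_101), 11.71 (Mouse_107), 12.87 (Mouse_109) and 11.76 (Mouse_113). With sulindac the levels ran from 11.63 to 13.61 with a median of 12.285. In this group 5 of 6 tumours lay above every control. The formerly obese tumours were the most spread, at 10.99 (Mouse_134), 10.32 (Mouse_140), 11.42 (Mouse_146), 12.47 (Mouse_150) and 13.44 (Mouse_152). Means were 11.30 ± 0.42 in control, 11.73 ± 1.24 in formerly obese, 11.85 ± 0.69 in obese and 12.40 ± 0.66 in sulindac tumours (SD, n = 6, 5, 5 and 6). Obese minus control was 0.55 ± 0.44 log2 units (SE, 95% interval -0.37 to 1.47, limma adjusted p = 0.9998), formerly obese minus obese -0.13 ± 0.46 (95% interval -1.09 to 0.84, adjusted p = 0.9833) and obese sulindac minus obese 0.54 ± 0.44 (95% interval -0.38 to 1.46, adjusted p = 0.8805). The formerly obese value became -0.55 without formerly obese Mouse_152 and 0.23 without formerly obese Mouse_140. The obese value became 0.30 without obese Mouse_109, and the sulindac value 0.30 without obese sulindac Mouse_125.

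The largest Cybb difference was between obese mice given sulindac and lean controls, 2.13-fold on the linear scale. It came to 1.09 ± 0.42 log2 units (SE, 95% interval 0.21 to 1.97), with an unadjusted limma p of 0.0171 and an adjusted p of 0.7043. An exact permutation test of this gene alone gave an unadjusted p of 0.00649, with 24 such differences examined over the 4 genes. The adjusted p lay between 0.5645 and 0.8729 over all alternatives. Diet and drug both differ between these 2 groups, so their parts cannot be told apart in this pair. All 10 measured markers of macrophages and monocytes had higher means with sulindac than in controls, with a median difference of 0.36 against 0.002 over all probe sets, and 0 of 10 were called. The mean of these markers ran from 9.70 to 11.3 in sulindac tumours and from 9.57 to 10.9 in control tumours. For obese minus control 10 of 10 of these markers were also higher (median 0.39), and for formerly obese minus obese 0 of 10 (median -0.36). For obese sulindac minus obese, where Cybb was higher by 0.54, 6 of 10 were higher (median 0.06), and for formerly obese minus control, where Cybb was higher by 0.42, 5 of 10 (median 0.0015). The marker list thus moved with Cybb in some pairs of groups and not in others. Among them Adgre1, the F4/80 antigen gene of macrophages, differed by 0.67 ± 0.28 for obese minus control, -0.58 ± 0.29 for formerly obese minus obese and -0.36 ± 0.28 for obese sulindac minus obese (limma adjusted p = 0.9998, 0.878 and 0.8696). In the last of these Adgre1 went against the median of its list. The marker with the smallest unadjusted p there, C1qc, was higher by 0.46 ± 0.275 (limma adjusted p = 0.8175). The part of these markers in the Cybb differences was not tested. In a bulk tumour, a change in the number of cells of a type and a change in RNA per cell cannot be told apart, and this holds for every gene here.

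Nox4 lay low in the range of levels and showed no ordering by regimen. Its mean of 5.42 was above that of 39.3% of probe sets, and the values carry no call of signal above background. Control tumours ran from 5.01 to 6.03 with a median of 5.41, and sulindac tumours from 5.06 to 5.74 with a median of 5.295. The obese tumours were at 5.19 (Mouse_96), 5.15 (Mouse_101), 5.9 (Mouse_107), 5.11 (Mouse_109) and 5.96 (Mouse_113). The formerly obese tumours were at 4.82 (Mouse_134), 6.72 (Mouse_140), 5.37 (Mouse_146), 5.14 (Mouse_150) and 5.12 (Mouse_152). The lowest and the highest tumour of the series were thus both formerly obese, and all groups overlapped. Group means lay between 5.37 ± 0.29 with sulindac and 5.46 ± 0.43 in obese tumours (SD, n = 6 and 5), with 5.43 ± 0.36 in control and 5.43 ± 0.75 in formerly obese tumours (SD, n = 6 and 5). Obese minus control was 0.04 (95% interval -0.53 to 0.60), formerly obese minus obese -0.03 (95% interval -0.62 to 0.57) and obese sulindac minus obese -0.09 (95% interval -0.66 to 0.48). The limma adjusted p was 0.9998, 0.9953 and 0.9845. Without formerly obese Mouse_140, formerly obese minus obese was -0.35.

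**Figure D2:**
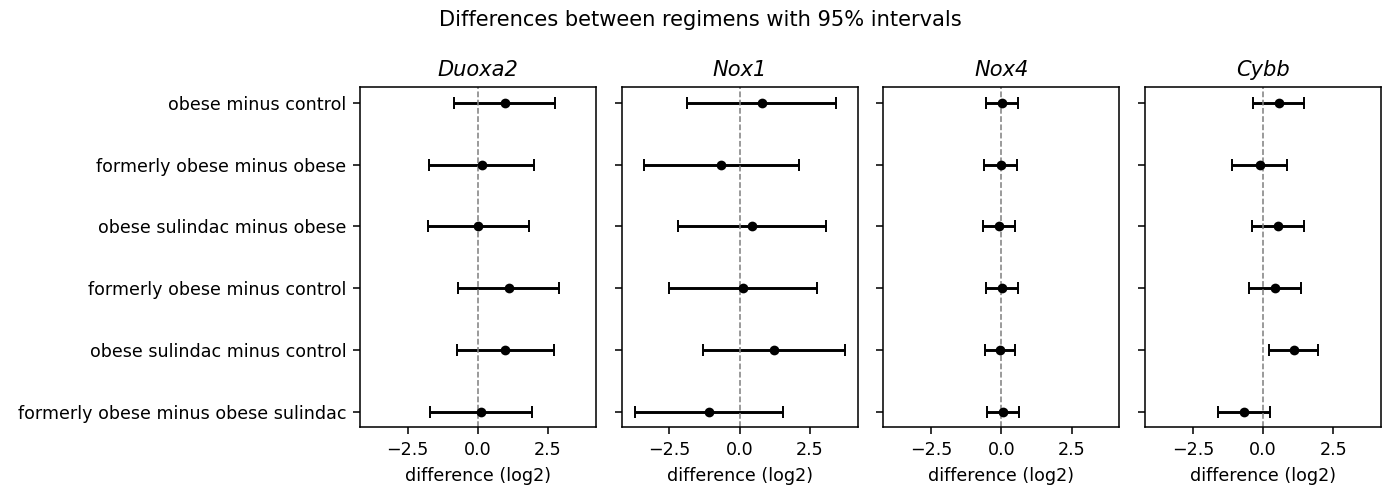
Differences between regimens in log2 units with 95% intervals from limma, for 6 pairs of groups and 4 genes on a common axis (points are differences of means, the dashed line is no difference). Only the interval of Cybb for obese sulindac minus control, 0.21 to 1.97, lies wholly on one side of 0; pairs of groups share arrays and are not independent.

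The share of the spread that lay between regimens was below the median of all probe sets for Duoxa2, Nox1 and Nox4 and above it for Cybb. Between the 4 groups lay 24.7% of the variance of Cybb, 9.45% of that of Duoxa2, 5.74% of that of Nox1 and 0.572% of that of Nox4, against a median of 12.8% over all probe sets. In the F test over the 4 groups the adjusted p was 0.8461 for Cybb, 0.9415 for Duoxa2, 0.9704 for Nox1 and 0.9979 for Nox4. The SD between tumours of Duoxa2, 1.51, exceeded that of 98.8% of probe sets, and that of Cybb, 0.84, exceeded that of 92.6%. The SD of Nox4, 0.44, exceeded that of 69.1%, and the median over all probe sets was 0.351.

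Duoxa2 and Nox1, the epithelial pair, rose and fell together between tumours. Pearson's r over the 22 tumours was 0.68 (permutation p = 0.00052, adjusted p = 0.00312 over the 6 pairs of genes) and Spearman's rho 0.70 (permutation p = 0.00037, adjusted p = 0.00222). With the group means removed r was 0.69, and without the 2 tumours farthest from the median of Duoxa2 it was 0.69. Leaving out single tumours gave 0.63 to 0.76. Tumours low in both included control Mouse_17 and Mouse_26, with Duoxa2 at 9.11 in each and Nox1 at 7.69 and 6.41. Tumours high in both included sulindac Mouse_124 and Mouse_129, with Duoxa2 at 13.33 and 13.57 and Nox1 at 13.58 and 13.25. Control Mouse_27, the tumour with the highest Nox1, had an intermediate Duoxa2 level of 11.24.

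Cybb followed both epithelial genes less closely, and Nox4 followed none of them. Cybb and Nox1 had r = 0.50 and rho = 0.59 (permutation p = 0.0182 and 0.00505, adjusted p = 0.0366 and 0.0109). Cybb and Duoxa2 had r = 0.50 and rho = 0.58 (permutation p = 0.0183 and 0.00546, adjusted p = 0.0366 and 0.0109). Without the 2 tumours farthest from the median of the first gene named in each test, r was 0.51 for Nox1 with Cybb and 0.54 for Duoxa2 with Cybb. With group means removed the values were 0.46 and 0.47. Nox4 had r = -0.05 with Duoxa2, -0.10 with Nox1 and -0.25 with Cybb (permutation p = 0.813, 0.671 and 0.269, adjusted p = 0.813, 0.806 and 0.404), and rho = -0.15, -0.14 and -0.17 (permutation p = 0.514, 0.527 and 0.46). The value for Nox4 and Cybb was 0.14 without the 2 tumours farthest from the median of Nox4 and 0.03 without formerly obese Mouse_140. Whether the correlation of Duoxa2 with Nox1 is larger than that of either with Cybb was not tested.

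**Figure D3:**
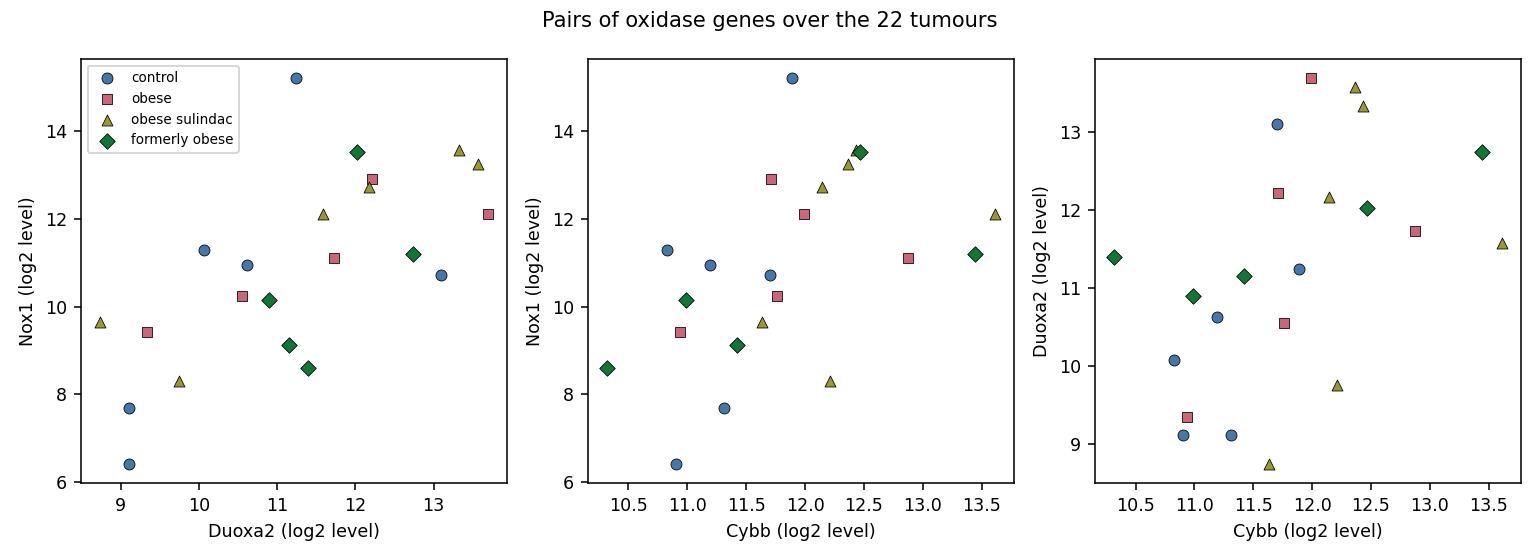
Log2 levels of Nox1 against Duoxa2, Nox1 against Cybb and Duoxa2 against Cybb in the 22 tumours (each point is a tumour, with colour and shape giving the regimen). The points rise together in each panel, with Pearson's r of 0.68, 0.50 and 0.50, and the regimens are intermixed.

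The promoters of Duoxa2, Nox1 and Cybb are shown because these 3 genes moved together between tumours. Each is the 250 bases before the annotated start, 5′ to 3′ on the gene's strand, from RefSeq, build GRCm38.p6. They lie at chr2:122298650-122298899 (plus strand), chrX:134111855-134112104 (minus strand) and chrX:9469325-9469574 (minus strand). Capitals mark matches to any of 7 short motifs, searched on both strands.
Duoxa2: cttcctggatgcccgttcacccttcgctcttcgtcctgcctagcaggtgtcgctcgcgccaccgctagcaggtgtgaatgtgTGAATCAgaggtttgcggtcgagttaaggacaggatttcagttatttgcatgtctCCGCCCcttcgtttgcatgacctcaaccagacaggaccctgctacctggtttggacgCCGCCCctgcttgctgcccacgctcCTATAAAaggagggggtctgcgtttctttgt
Nox1: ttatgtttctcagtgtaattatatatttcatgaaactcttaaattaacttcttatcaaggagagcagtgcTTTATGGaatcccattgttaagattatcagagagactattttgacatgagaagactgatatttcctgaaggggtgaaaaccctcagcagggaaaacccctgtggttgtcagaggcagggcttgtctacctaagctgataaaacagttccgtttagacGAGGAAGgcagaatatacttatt
Cybb: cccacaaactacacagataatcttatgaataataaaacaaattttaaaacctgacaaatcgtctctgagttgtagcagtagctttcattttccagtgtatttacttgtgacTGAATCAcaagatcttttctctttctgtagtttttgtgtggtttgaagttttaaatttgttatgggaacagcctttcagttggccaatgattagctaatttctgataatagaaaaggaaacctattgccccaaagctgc

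The motifs were searched in windows of 300 bases, which add the first 50 bases after the start, in these genes and in all 32851 windows of the table. They were TATAAA (the TATA box, in 13.6% of all windows), GGGCGG (the GC box, 35.7%), TGANTCA (AP-1, 7.81%), TTCNNNGAA (STAT, 8.30%), GGANTTTCC (NF-kB, 1.25%), GAGGAAG (ETS factors, 13.6%) and TTTATNG (CDX, 10.9%). The Duoxa2 window held TATAAA 30 bases before the start, GGGCGG on the reverse strand at 2 places, TGANTCA and, overlapping the TATA box on the reverse strand, TTTATNG. The Nox1 window held GAGGAAG beginning 23 bases before the start and TTTATNG beginning 180 bases before it. The Cybb window held TGANTCA beginning 139 bases before the start. No motif of the 7 was matched in all 3 windows: Duoxa2 and Nox1 shared TTTATNG, and Duoxa2 and Cybb shared TGANTCA. The Nox1 and Cybb windows were poor in G and C, at 38.0% and 35.3%, against 56.7% for Duoxa2. The Nox4 window, not printed, held GGGCGG and TTCNNNGAA and was 68.3% G and C. The Duox2 window, whose gene runs the other way with 672 bases between its start in this table and that of Duoxa2, held no match. These are matches of letters in 1 window per gene, and binding was not measured.

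The genes most like each oxidase gene were ranked by Pearson's r over the 22 tumours among 17046 named genes. These values are descriptions, all 22 points coming from 1 array each. Duoxa2 was closest to Txnrd1, the cytosolic thioredoxin reductase gene, at r = 0.91 (rho = 0.90). Next came the calcium-activated chloride channel regulators Clca3a1 and Clca3b and the membrane protein gene Stom, each at r = 0.90, then Clca3a2 and the actin-capping protein gene Capg, each at 0.89. The 3 Clca genes are close relatives whose probes may share signal. Txnrd1 ran only from 15.17 to 16.45, whereas Clca3a1 ran from 7.5 to 12.16. The most opposed genes were Akap8l at -0.81 and Prrc2c at -0.80. With group means removed, 4 of the 6 closest genes were again among the closest 6.

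Nox1 was closest to Slc28a3, a nucleoside transporter gene, at r = 0.86 (rho = 0.83), then to Nod2, which encodes an intracellular sensor of bacterial cell wall fragments, at 0.82. The others were Bcl2l15 of the Bcl2 family at 0.79, Nos2 (inducible nitric oxide synthase) at 0.78, Tnfsf10 (the death ligand TRAIL) at 0.77 and Tifa, an adaptor in NF-kB signalling, at 0.77. Nos2 ran from 5.97 to 12.56 over the tumours and Tnfsf10 from 7.4 to 14.79. The most opposed were Hsbp1l1 at -0.80 and Fam43a at -0.77. Of the 6 closest, 3 stayed among the closest 6 with group means removed and 2 by Spearman's rho.

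The genes closest to Cybb were Pld4 at r = 0.94 (rho = 0.92), Mpeg1, which encodes a pore-forming protein of macrophages, at 0.91, Ikzf1, a transcription factor of lymphoid and myeloid cells, at 0.89, Tnfaip8l2 at 0.88, Aif1, a macrophage marker, at 0.87, and the complement protease gene C1s1 at 0.87. The most opposed were Foxa3 at -0.80 and D2hgdh at -0.77. For Nox4 the likeness was weaker, with 0 genes above r = 0.8, against 25 for Duoxa2, 2 for Nox1 and 51 for Cybb. The closest to Nox4 were Zkscan16 at 0.76 (rho = 0.56), Rab14 at 0.74, the matrix proteoglycan gene Vcan at 0.73 (rho = 0.79), the WNT ligand gene Wnt5a at 0.73 (rho = 0.72), Enc1 at 0.73 and Scrn3 at 0.73. The most opposed were Acads at -0.76 and Aph1a at -0.70. By Spearman's rho, 1 of the 6 remained among the closest 6.

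Among the genes of partner proteins and other family members, 12 of 14 listed had a named probe set, and 0 of 12 were called in any of the 3 main comparisons. Of their 72 differences over all 6 pairs of groups, 6 had an unadjusted p under 0.05. Over all probe sets, 4.03% to 6.63% had such a p in a pair of groups, so the count is near that share. Median differences were 0.06 for obese minus control, -0.09 for formerly obese minus obese and 0.09 for obese sulindac minus obese, against medians of -0.004, 0.004 and 0.009 over all probe sets. The numbers of genes higher were 8, 5 and 7 of 12. Noxa1, the activator of Nox1, was singled out after its values were seen, as was Poldip2, because groups did not overlap. Its obese levels were 8.04 to 9.01 and its formerly obese levels 6.69 to 7.80, so the groups did not overlap. The means were 7.42 ± 0.44 against 8.48 ± 0.36 (SD, n = 5 and 5). Formerly obese minus obese was thus -1.07 ± 0.33 (SE, 95% interval -1.76 to -0.38) on the log2 scale, with an unadjusted limma p of 0.00419 and an adjusted p of 0.866. With sulindac Noxa1 ran from 6.92 to 8.46, and the difference from obese tumours was -0.75 ± 0.32 (unadjusted p = 0.029, adjusted p = 0.721). Control tumours ran from 7.55 to 9.31, and obese minus control was -0.10 ± 0.32 (adjusted p = 0.9998). The first 2 of these differences share the same obese arrays.

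Poldip2, which encodes a protein known to bind p22phox and regulate Nox4, was the other gene without overlap. It ran from 10.08 to 10.74 in obese and from 10.81 to 11.45 in control tumours. Obese minus control was -0.56 ± 0.19 (SE, 95% interval -0.95 to -0.17) on the log2 scale, with an unadjusted limma p of 0.0073 and an adjusted p of 0.9998. Its differences were 0.29 ± 0.20 for formerly obese minus obese and 0.38 ± 0.19 for obese sulindac minus obese. The first of these was 0.13 without formerly obese Mouse_152 and 0.19 without obese Mouse_101. Over all probe sets, 0.383% did not overlap between obese and control tumours, 0.878% between formerly obese and obese, and 0.676% between sulindac and obese. Among the 12 partner genes the counts were 1, 1 and 0, and among the 4 oxidase genes 0, 0 and 0. Noxo1, the organizer of Nox1, had means of 10.98 ± 0.49 in control, 10.49 ± 0.64 in obese, 10.58 ± 1.01 in sulindac and 10.83 ± 0.59 in formerly obese tumours (SD, n = 6, 5, 6 and 5), with adjusted p of 0.9998, 0.945 and 0.989 in the main comparisons. The family members Duox1 and Nox3 lay near the bottom of the scale, with group means of 4.31 to 4.57 and 4.44 to 4.69.

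**Figure D4:**
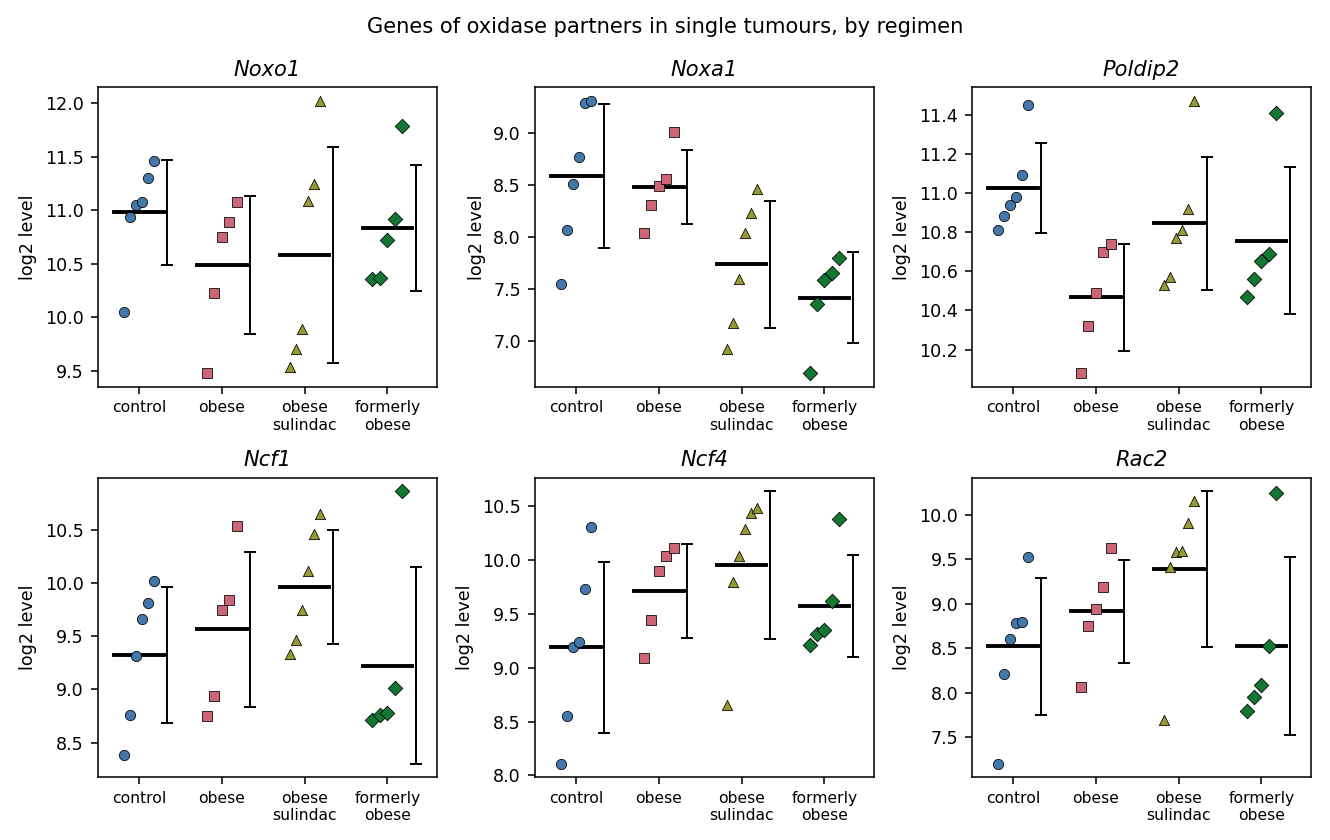
Log2 levels of 6 partner genes in the 22 tumours by regimen (points are tumours, horizontal bars are means, error bars are SD; axes differ between panels and do not start at 0). Noxa1 lies at 6.69 to 7.80 in formerly obese and 8.04 to 9.01 in obese tumours, and Poldip2 at 10.08 to 10.74 in obese and 10.81 to 11.45 in control tumours.

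Across tumours, genes of the cytosolic subunits of the phagocyte oxidase, and a proton channel gene, moved with Cybb. Rac2, a GTPase gene of blood cells, had r = 0.81 with Cybb and rho = 0.80 (permutation p = 3e-05 and 6e-05, adjusted p = 0.00064 for r over 48 pairs of partner and oxidase gene). Ncf1, the p47phox gene, had r = 0.79 and rho = 0.74 (permutation p = 2e-05 and 0.0001). The proton channel gene Hvcn1 had r = 0.76 and rho = 0.69 (permutation p = 4e-05 and 0.00053), and Ncf4, the p40phox gene, r = 0.74 and rho = 0.82 (permutation p = 7e-05 and 2e-05). Their adjusted p for r was 0.00064, 0.00064 and 0.00084. Without the 2 tumours farthest from the partner's median, r was 0.77, 0.73, 0.56 and 0.71 for Rac2, Ncf1, Hvcn1 and Ncf4. Cyba, the p22phox gene shared by several oxidases, had r = -0.05 with Cybb and rho = -0.02 (permutation p = 0.818 and 0.946, adjusted p = 0.913 for r).

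Noxo1, Noxa1 and Cyba, the genes of partners of Nox1, did not pass with Nox1, and whether they differ in this from those of Cybb was not tested. Noxo1 had r = 0.35 and rho = 0.44 with Nox1 (permutation p = 0.112 and 0.0429, adjusted p = 0.298 for r), or r = 0.22 without the 2 tumours farthest from its median. Noxa1 had r = 0.07 and rho = 0.10 (permutation p = 0.744 and 0.652, adjusted p = 0.893 for r), and Cyba r = 0.42 and rho = 0.37 (permutation p = 0.0504 and 0.0917, adjusted p = 0.153 for r). Noxo1 passed with Duoxa2 by r but not by rho, at r = 0.59 and rho = 0.53 (permutation p = 0.00368 and 0.0113, adjusted p = 0.0294 for r and 0.0602 for rho), or r = 0.50 without the 2 tumours. Some genes of the phagocyte oxidase, and the proton channel gene Hvcn1, passed with Duoxa2 as well, while others did not. Ncf1 had r = 0.44 with Duoxa2, Cyba r = 0.31 and the partner gene Cybc1 r = 0.26 (permutation adjusted p = 0.136, 0.402 and 0.532). Those that passed were as follows. Ncf4 had r = 0.72 and rho = 0.72 (permutation p = 0.00017 and 0.00024, adjusted p = 0.00163 for r), Hvcn1 r = 0.57 and rho = 0.64 (permutation p = 0.0052 and 0.00162, adjusted p = 0.0357 for r) and Rac2 r = 0.56 and rho = 0.55 (permutation p = 0.00758 and 0.00911, adjusted p = 0.0455 for r and 0.0547 for rho). Leaving out the 2 tumours, r was 0.68, 0.63 and 0.45. No partner passed for Nox4, the largest being Rac1 at r = -0.26 and rho = -0.37 (permutation p = 0.237 and 0.0872, adjusted p = 0.532 for r).

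Genes that handle peroxide and superoxide showed small median differences between regimens, and 0 of 17 measured members were called. The medians were 0.11 for obese minus control (12 of 17 higher), -0.10 for formerly obese minus obese (6 of 17 higher) and -0.06 for obese sulindac minus obese (4 of 17 higher). Gpx3, the secreted glutathione peroxidase gene, differed by 0.62 ± 0.29 and -0.998 ± 0.30 log2 units in the first 2 comparisons (unadjusted p = 0.0438 and 0.00319, limma adjusted p = 0.9998 and 0.866), which share the obese arrays. The superoxide dismutase genes Sod1 and Sod3 differed by 0.21 ± 0.145 for obese minus control and -0.97 ± 0.50 for formerly obese minus obese. Thioredoxin (Txn1) differed by 0.42 ± 0.25 and catalase (Cat) by -0.33 ± 0.23 for obese sulindac minus obese. Over tumours, 4 of the 17 genes passed by r with Duoxa2, 4 with Nox1 and 0 with Nox4, while Cybb passed with 2 in the positive direction and with Cat in the negative. The share of all genes that would pass alike was not computed, so these counts have no background to be read against. Txnrd1 had r = 0.91 and rho = 0.90 with Duoxa2 (permutation p = 1e-05, the smallest the permutations can give, for both; adjusted p = 0.00168 for r over 168 pairs), and r = 0.63 and rho = 0.58 with Nox1 (permutation p = 0.00168 and 0.00519, adjusted p = 0.0176 for r). Its correlation with Duoxa2 is the one already ranked highest among all named genes above, so it is not a separate result. With Cybb, Txnrd1 had r = 0.50 and rho = 0.60 (permutation p = 0.0179 and 0.00378, adjusted p = 0.0878 for r and 0.0318 for rho). Txn1 had r = 0.73 and rho = 0.73 with Duoxa2 (permutation p = 0.0001 and 0.00016) and r = 0.70 and rho = 0.77 with Nox1 (permutation p = 0.00033 and 6e-05), with adjusted p = 0.00336 and 0.00693 for r. It followed Cybb to a like degree, at r = 0.72 and rho = 0.74 (permutation p = 0.00022 and 0.00023, adjusted p = 0.00528 for r). Without the 2 tumours farthest from the median of Txnrd1 or Txn1, the values of r for Txnrd1 were 0.87 with Duoxa2, 0.54 with Nox1 and 0.48 with Cybb, and for Txn1 0.66, 0.65 and 0.70. Gpx2, the glutathione peroxidase gene of gut epithelium, had r = 0.68 and rho = 0.67 with Nox1 (permutation p = 0.00049 and 0.00101, adjusted p = 0.00823 for r), r = 0.67 and rho = 0.64 with Cybb (permutation p = 0.00071 and 0.00182, adjusted p = 0.0108 for r) and r = 0.65 and rho = 0.64 with Duoxa2 (permutation p = 0.00093 and 0.00167, adjusted p = 0.0114 for r). Leaving out the 2 tumours, r was 0.62, 0.73 and 0.49.

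Cytokines known to induce oxidase genes and epithelial defence genes were on average higher in obese than in control tumours, without any call. Both lists also lay above control in the other groups. For obese sulindac minus control 8 of 11 cytokine genes (median 0.14) and 12 of 14 defence genes (median 0.73) were higher. For formerly obese minus control these were 7 of 11 (median 0.07) and 11 of 14 (median 0.49). Over all probe sets 50.2% and 49.5% were higher in these pairs. For obese minus control 8 of 11 cytokine genes lay higher, with a median of 0.26, and 12 of 14 defence genes, with a median of 0.81. Over all probe sets 49.1% were higher there, with a median of -0.004. The mean over the defence list ran from 7.66 to 11.3 in control tumours, which enclosed the obese range of 9.80 to 10.5. In the same comparison 8 of 9 neutrophil markers were higher (median 0.59), of which S100a8 and S100a9 are also on the defence list, while 8 of 9 epithelium markers (median -0.28) and 8 of 9 absorptive colonocyte markers (median -0.52) were lower. Their part in these list differences was not tested. The cytokine genes Tnf and Il6 differed by 0.79 ± 0.52 and 0.88 ± 0.58 log2 units. Saa3, an acute-phase gene, differed by 2.17 ± 0.62 (unadjusted p = 0.00223, limma adjusted p = 0.9998) and the chemokine gene Cxcl1 by 1.10 ± 0.70. For formerly obese minus obese the medians were -0.13 (1 of 11 higher) and 0.16 (8 of 14 higher), with Tgfb3 at -1.42 ± 0.45, Il6 at -0.51 ± 0.60, the lectin gene Reg3b at 3.22 ± 1.73 and the iron-binding defence gene Lcn2 at -1.90 ± 1.03. For obese sulindac minus obese they were -0.18 (4 of 11 higher) and -0.07 (6 of 14 higher), with Il6 at -1.21 ± 0.58, Tgfb3 at -0.57 ± 0.43, Lcn2 at -1.71 ± 0.98 and Cxcl1 at -1.22 ± 0.70.

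Between tumours, 4 of the 14 defence genes passed by r with Duoxa2, 5 with Nox1, 1 with Cybb and 0 with Nox4. Many genes outside the lists correlated strongly too. Among 17046 ranked genes, r was above 0.8 for 25 with Duoxa2, 2 with Nox1, 51 with Cybb and 0 with Nox4. The share of all genes that would pass alike was not computed. The counts for the defence and cytokine lists thus have no background to be read against. Lcn2 was among those that did not pass, at r = 0.14 with Duoxa2 and 0.08 with Nox1. Nos2 had r = 0.83 and rho = 0.81 with Duoxa2 (permutation p = 3e-05 for both, adjusted p = 0.00168 for r) and r = 0.78 and rho = 0.74 with Nox1 (permutation p = 4e-05 and 0.0002, adjusted p = 0.00168 for r). The value with Nox1 is the one already given above among its closest genes. Without the 2 tumours farthest from the median of Nos2, r was 0.78 and 0.69. With Cybb, Nos2 passed by rho but not by r, at r = 0.51 and rho = 0.57 (permutation adjusted p = 0.0804 and 0.0441). Pigr, which carries antibodies across the epithelium, had r = 0.75 and rho = 0.78 with Nox1 (permutation p = 3e-05 and 5e-05, adjusted p = 0.00168 for r), or r = 0.68 without the 2 tumours. The antimicrobial lectin gene Reg3g had r = 0.71 and rho = 0.65 with Nox1 (permutation p = 0.00019 and 0.00144, adjusted p = 0.00528 for r), or r = 0.50 without the 2 tumours. Pigr and Reg3g also passed with Duoxa2 by r, each at r = 0.56 (permutation adjusted p = 0.0463 for each). Their rho with Duoxa2 was 0.53 and 0.63 (permutation adjusted p = 0.0624 and 0.0206). Without the 2 tumours their r with Duoxa2 was 0.41 and 0.58. Among the 11 cytokine genes 1 passed by r with each of the 4 oxidase genes. Tnf followed Nox1 at r = 0.69 and rho = 0.67 (permutation p = 0.00042 and 0.00082, adjusted p = 0.00784 for r), or r = 0.71 without the 2 tumours, and Ifng followed Duoxa2 at r = 0.58 and rho = 0.65 (permutation p = 0.00463 and 0.00182, adjusted p = 0.0377 for r), or r = 0.50 without the 2 tumours. Ifng also passed with Cybb by r, at r = 0.56 and rho = 0.51 (permutation p = 0.00696 and 0.0172, adjusted p = 0.0468 for r and 0.0753 for rho), or r = 0.56 without the 2 tumours. Ifng lay low in the range of levels, with group means of 4.92 to 5.06, and the values carry no call of signal above background. Tgfb2 followed Nox4 at r = 0.59 and rho = 0.59 (permutation p = 0.00355 and 0.00452, adjusted p = 0.0314 for r), or r = 0.37 without the 2 tumours.

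Marker lists of cell types placed each gene against the makeup of the tumours. Cybb followed the 10 measured markers of macrophages and monocytes at r = 0.84 and rho = 0.85 (permutation p = 1e-05, the smallest the permutations can give, for both; adjusted p = 0.00044 for r over 44 pairs of gene and list), or r = 0.89 without the 2 tumours farthest from the list's median. It also followed T cell markers at r = 0.76 and rho = 0.71 (permutation p = 0.0001 and 0.00042, adjusted p = 0.0022 for r) and B and plasma cell markers at r = 0.72 and rho = 0.54 (permutation p = 0.00018 and 0.01, adjusted p = 0.00264 for r), or r = 0.67 and 0.47 without the 2 tumours. Neutrophil markers, whose cells use the same oxidase, had r = 0.23 and rho = 0.27 with Cybb (permutation p = 0.308 and 0.214, adjusted p = 0.503 for r). The 9 neutrophil markers had means above those of only 10.2% to 63.6% of named genes.

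Duoxa2 and Nox1 moved with markers of macrophages and T cells and against those of stem cells. With T cell markers Duoxa2 had r = 0.61 and rho = 0.61 (permutation p = 0.00237 and 0.00325, adjusted p = 0.0154 for r) and Nox1 r = 0.53 and rho = 0.57 (permutation p = 0.011 and 0.00597, adjusted p = 0.0405 for r), or r = 0.61 and 0.41 without the 2 tumours. The other immune lists did not pass: with neutrophil markers r was 0.37 and 0.33 (permutation adjusted p = 0.254 and 0.284), and with B and plasma cell markers 0.34 and 0.30 (permutation adjusted p = 0.268 and 0.323). Duoxa2 had r = 0.68 and rho = 0.72 with macrophage and monocyte markers (permutation p = 0.00059 and 0.00026, adjusted p = 0.00649 for r), and Nox1 r = 0.61 and rho = 0.61 (permutation p = 0.0026 and 0.00357, adjusted p = 0.0154 for r), or r = 0.56 and 0.50 without the 2 tumours. Against the 5 stem cell markers, Nox1 had r = -0.64 and rho = -0.64 (permutation p = 0.00133 and 0.00176, adjusted p = 0.0117 for r), Cybb r = -0.60 and rho = -0.58 (permutation p = 0.00281 and 0.00566, adjusted p = 0.0154 for r) and Duoxa2 r = -0.57 and rho = -0.55 (permutation p = 0.00555 and 0.00933, adjusted p = 0.0222 for r). Without the 2 tumours these were -0.63, -0.46 and -0.47. With epithelium markers Duoxa2 had r = 0.51 and rho = 0.56 (permutation p = 0.015 and 0.00718, adjusted p = 0.0508 and 0.0287) and Nox1 r = 0.36 and rho = 0.44 (permutation p = 0.0995 and 0.0425, adjusted p = 0.257 for r). The part of cell makeup in the pairing of Duoxa2 and Nox1 was not tested.

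Nox4 alone among the 4 genes passed with markers of fibroblasts and endothelium. It had r = 0.59 and rho = 0.69 with 9 fibroblast markers (permutation p = 0.0035 and 0.00053, adjusted p = 0.0154 for r) and r = 0.59 and rho = 0.50 with 7 endothelial markers (permutation p = 0.00342 and 0.0182, adjusted p = 0.0154 for r and 0.0535 for rho). With the 2 tumours left out, r was 0.53 and 0.56. With absorptive colonocyte markers it had r = -0.44 and rho = -0.65 (permutation p = 0.0423 and 0.00126, adjusted p = 0.133 and 0.0111). Smooth muscle markers had r = -0.01 and rho = 0.09 with Nox4 (permutation p = 0.955 and 0.696). This r was 0.36 without the 2 tumours farthest from the list's median and 0.34 without formerly obese Mouse_134 alone.

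**Figure D5:**
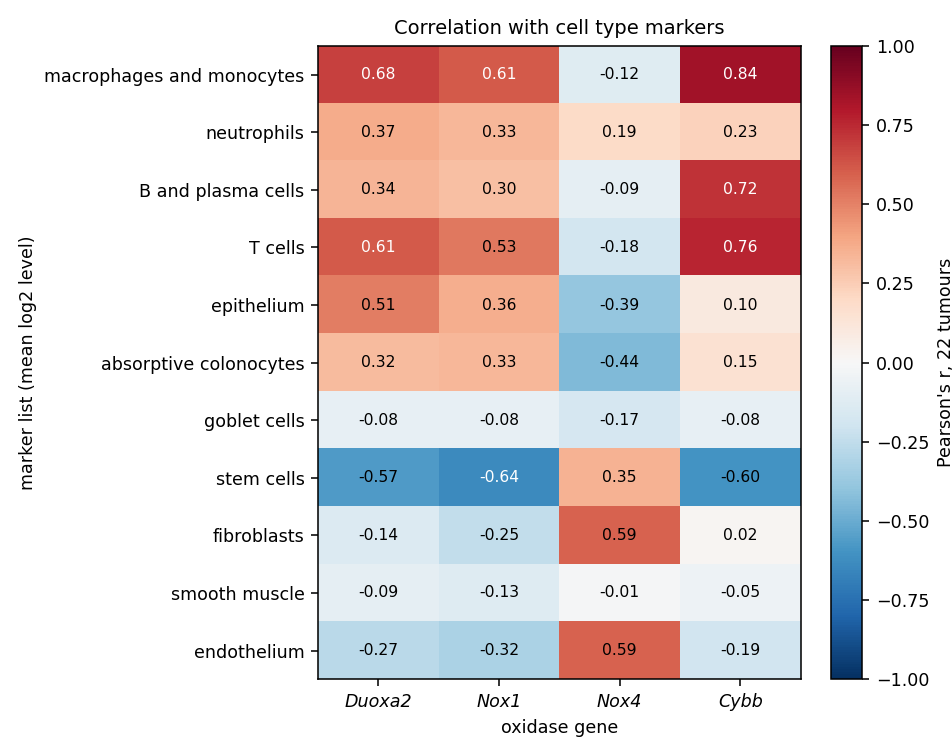
Pearson's r over 22 tumours between each of 4 oxidase genes (columns) and the mean log2 level of 11 marker lists (rows), on a colour scale from -1 to 1 with the value in each cell. Cybb is highest with macrophages and monocytes (0.84), and Nox4 with fibroblasts and endothelium (0.59 each). Duoxa2, Nox1 and Cybb are each lowest with stem cells (-0.57, -0.64 and -0.60).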

How the data were processed

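The authors' deposited values are log2 levels of 22203 probe sets on 22 Clariom S arrays; the base is read from the range, 3.34 to 19.49. Transcriptome Analysis Console 4.0 is the tool in the submitters' processing notes. How probes were summarized, corrected for background and normalized is not given here. Gene names came from the platform annotation. Groups came from the sample titles. Nothing in the labels says how tumours were sampled within a mouse, so p-values measure the spread between these samples.

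A mean per group was fitted in R 4.3.3 with limma 3.58.1 to all probe sets (two-sided, Benjamini-Hochberg over 22203, threshold 0.05) and tested on simulated data. Correlations used 100000 permutations (numpy 2.4.6). Members and lists were chosen with earlier results of these data known. Correlations with single partner and pathway genes were added after the values were seen, and Noxa1 and Poldip2 were then singled out. The rule for named genes takes every oxidase gene, the 2 genes of a list with the smallest p in a main comparison, any partner gene, and the 6 closest and 2 most opposed genes by r, except predicted genes, Riken clones and receptors of the olfactory or vomeronasal kind. Marker lists are given whole, with only Adgre1 and C1qc named for their differences. List genes named for their correlations fall outside it. The alternatives were quantile normalization, a filter on dim probe sets, the arrays of 2 groups alone, trend and robust options, array weights, exact permutation tests and leaving out each mouse.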

Additional observations from a re-analysis of the deposited data

Results flagged for a closer look

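Among the 4 oxidase genes and 4 groups, 1 tumour lay far from the others of its group by Dixon's ratio: formerly obese Mouse_140, with Nox4 at 6.72 against 5.37 for the next highest (ratio 0.711, critical value 0.71 for n = 5). Chance alone flags about 1 in 20 groups, and 16 were examined. The same tumour had the lowest Cybb level of the series, 10.32.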

How the results depend on the processing

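No alternative called an oxidase gene in limma: the smallest adjusted p was 0.5179. Of the 6 genes' differences (the 4 oxidase genes, Noxa1 and Poldip2), 167 of 174 kept their direction under alternatives that keep all mice, and 286 of 328 when a mouse was left out. Quantile normalization turned Duoxa2 to -0.0030 (obese sulindac minus obese) and Nox4 to -0.040 (formerly obese minus control). Array weights turned Nox4 to -0.0040 (obese minus control) and 0.010 (formerly obese minus obese), Duoxa2 to -0.12 (formerly obese minus obese) and -0.22 (formerly obese minus obese sulindac), and Nox1 to -0.013 (formerly obese minus control). The cause was not tested.

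Leaving out single mice gave these ranges where a sign turned. For obese minus control they were -0.012 to 1.75 (Nox1), -0.089 to 0.16 (Nox4) and -0.31 to 0.044 (Noxa1). For formerly obese minus obese they were -0.41 to 0.68 (Duoxa2), -0.35 to 0.13 (Nox4) and -0.55 to 0.23 (Cybb). For obese sulindac minus obese they were -0.52 to 0.58 (Duoxa2) and -0.18 to 0.036 (Nox4). For formerly obese minus control they were -0.66 to 1.10 (Nox1), -0.31 to 0.16 (Nox4) and -0.0033 to 0.78 (Cybb). For obese sulindac minus control the range was -0.14 to 0.067 (Nox4), and for formerly obese minus obese sulindac -0.44 to 0.52 (Duoxa2) and -0.26 to 0.21 (Nox4). Probe sets called for obese sulindac minus obese ranged from 0 to 1 (1 without obese Mouse_96).

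An exact permutation test, unadjusted, gave p = 0.00649 for Cybb (obese sulindac minus control). The filter on dim probe sets leaves out Nox4. Each gene has 1 probe set, so averaging probe sets changes nothing. On the forward strand alone, 2 of the 4 motifs matched in the Duoxa2 window remain. Precision is limited by how many arrays each group has.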
